A study of Mus musculus with 4 samples.

Results

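Alb, Afp, Ttr and Apoa1 encode major proteins that hepatocytes of the fetal liver secrete. They were read in livers of embryonic day E14.5 from Stk40 KO (Stk40-/-) and WT embryos, both from matings of heterozygotes on the C57BL/6J background. The members were chosen by probe set ID, by a rule with no threshold on the measured values but with earlier results of these data known: 10 of the 45101 probe sets of the Affymetrix mouse 430 2.0 array, of which 1 stands for Alb, 2 for Afp, 4 for Ttr and 3 for Apoa1. The gene assigned to each of these IDs was given with the selection and could not be checked against a table of probe sets here. Each genotype had 2 arrays, and each array received total RNA pooled from 6 livers of 1 genotype, so that the spread is that between 2 pools and not between embryos. Every liver cell type entered the RNA, and the mutation was present in all of them. The E14.5 livers were compared between genotypes to find transcripts altered by loss of Stk40, a gene of the serine/threonine kinase family. The 4 genes were set apart as a reference for the hepatocyte share of this RNA.

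At this stage the liver is the main site of blood formation, and hepatoblasts, the precursors of hepatocytes and bile duct cells, lie among large numbers of erythroid cells. Hepatoblasts and early hepatocytes already transcribe the genes of several plasma proteins at a high rate, under liver-enriched factors such as HNF4 and C/EBP. Albumin is the main carrier and osmotic protein of plasma, and alpha-fetoprotein, encoded by Afp, is its fetal relative. Transthyretin, encoded by Ttr, carries thyroid hormone and retinol-binding protein, and apolipoprotein A-I, encoded by Apoa1, is the main protein of high-density lipoprotein.

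In GRCm38.p6, Alb lies at chr5:90460870-90476602 and Afp, its neighbour on the same strand, at chr5:90490714-90508907, with 14.1 kb between them. Apoa1 lies at chr9:46228630-46230469. The promoter sequences of 3 of the 4 genes are shown because these genes are read together as markers of one cell type and their promoters hold different letters. Each line gives the 150 bases before the transcription start annotated by RefSeq (build GRCm38.p6, plus strand): chr5:90460720-90460869 for Alb, chr5:90490564-90490713 for Afp and chr9:46228480-46228629 for Apoa1. Capitals mark matches on either strand to 4 motifs: the CCAAT box CCAAT, the TATA box TATAAA, the C/EBP core TTGCNNAA and the nuclear receptor half-site AGGTCA.
Alb: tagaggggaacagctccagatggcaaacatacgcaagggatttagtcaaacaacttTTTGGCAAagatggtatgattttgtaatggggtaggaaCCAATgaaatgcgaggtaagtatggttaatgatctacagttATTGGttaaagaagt
Afp: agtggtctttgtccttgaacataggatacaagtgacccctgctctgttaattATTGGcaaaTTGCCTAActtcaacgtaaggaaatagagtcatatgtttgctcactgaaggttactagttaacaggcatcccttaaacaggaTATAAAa
Apoa1: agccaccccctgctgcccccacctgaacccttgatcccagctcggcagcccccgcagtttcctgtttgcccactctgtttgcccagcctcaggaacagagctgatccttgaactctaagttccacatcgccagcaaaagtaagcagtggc
The windows of Alb and Afp each held the C/EBP core, at -94 to -87 from the start on the minus strand and at -89 to -82 on the plus strand. Alb had a CCAAT box on each strand, at -56 to -52 and -15 to -11, Afp had 1 at -98 to -94 on the minus strand, and TATAAA was found in Afp at -7 to -2. The Apoa1 window held none of the 4. Among 32851 mouse windows of the same length, 24.5% held CCAAT, 7.57% TATAAA, 5.46% TTGCNNAA and 8.58% AGGTCA. A match of letters is a description and not a binding site.

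Each deposited value was the linear intensity of a probe set on an array, in arbitrary units and with no scaling between arrays. The median over all probe sets was 37.5 and 39.5 on Stk40 KO arrays, against 30.0 and 34.0 on WT arrays, and spiked hybridization controls (transcripts of bacteria and phage added to each sample) were brighter on Stk40 KO arrays, with a log2 difference of 0.27. All values are therefore given as deposited and also at equal 75th percentiles, that is, after a factor per array had made the 75th percentiles of positive values equal, which left the spiked controls 0.041 apart. The noise level was 143 (95% of negative values were smaller than it in size), and 28.0% and 28.6% of probe sets exceeded it on Stk40 KO arrays, against 24.2% and 27.2% on WT arrays. The probe set named for Stk40 read -98.9 and -111 on Stk40 KO arrays and 59.9 and 52.2 on WT arrays, all under the noise level, and whether its probes lie in the deleted sequence was not examined. The 3'/5' ratio of Gapdh, a measure of RNA integrity, was 1.18 and 1.33 on Stk40 KO arrays, against 1.27 and 1.39 on WT arrays.

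All 10 probe sets were bright, at least 31.4 times the noise level on every array, so the filter on low values removed none. Only 229 probe sets had a mean as high as the dimmest of the 10 (5022) or higher. In the plot of intensity by array, the Alb probe set lies close to the brightest values the arrays gave. Levels of different probe sets are not compared with each other, since probes differ in how strongly they bind.

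**Figure D1:**
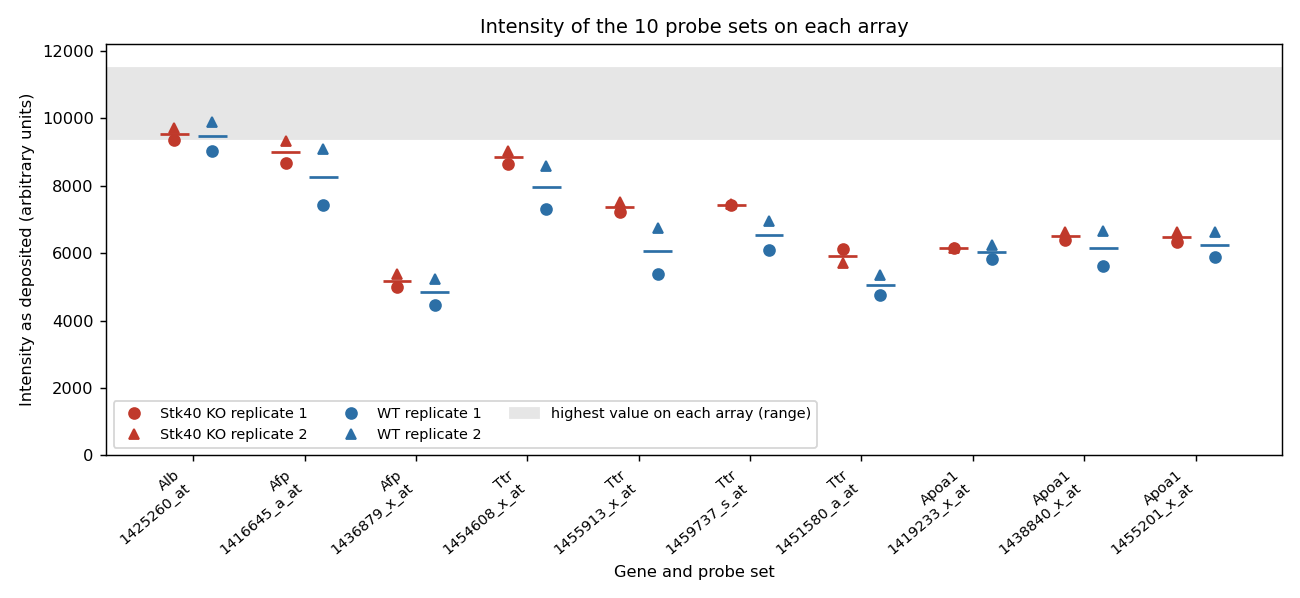
Intensity as deposited (vertical axis, arbitrary units, linear from 0) of the 10 probe sets (horizontal axis) on the 2 Stk40 KO arrays (red) and the 2 WT arrays (blue), with a bar at each genotype mean and a grey band over the brightest value of each array (9384 to 11492). WT replicate 1 gave the lowest value of all 10 probe sets, and the 4 Ttr probe sets are the ones whose genotypes do not overlap.

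The genotype means of Alb, as deposited, lay closer together than the replicates of either genotype. Its probe set (1425260_at) had an intensity of 9347 and 9709 in Stk40 KO livers, against 9034 and 9896 in WT livers. The WT values lay on either side of both Stk40 KO values, and the means were 9528 ± 256 in Stk40 KO and 9465 ± 609.5 in WT (SD, n = 2 arrays), a difference of 0.664% of the WT mean. The value stood at 89.2% and 84.5% of the brightest probe set of its array in Stk40 KO, against 96.3% and 90.6% in WT. At equal 75th percentiles it was 8562 and 9017 in Stk40 KO livers and 10737 and 9789 in WT livers, so that the Stk40 KO values lay below those of WT without overlap. The log2 fold change was then -0.22 ± 0.068 (SE), with a 95% confidence interval of -0.38 to -0.066, and it did not pass the test (limma, adjusted p = 0.15). Without WT replicate 2, the WT array then nearer to Stk40 KO, Alb passed (-0.29, limma adjusted p = 0.0469), with the lone WT array assumed to vary like those of Stk40 KO.

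Afp was read by a pair of probe sets that behaved alike. The brighter (1416645_a_at) had 8667 and 9331 in Stk40 KO livers, against 7433 and 9073 in WT livers. The other (1436879_x_at) had 5000.3 and 5369 in Stk40 KO livers, against 4475 and 5245 in WT livers. In both, the high WT array reached into the Stk40 KO range and the low one was WT replicate 1. The means of Stk40 KO were 9.04% and 6.68% above those of WT as deposited, and the differences were -6.76% and -8.94% at equal 75th percentiles, where the genotypes did not overlap. The log2 fold change at equal 75th percentiles was -0.10 (95% confidence interval -0.25 to 0.047, limma adjusted p = 0.463) for the brighter probe set and -0.14 (-0.28 to 0.012, adjusted p = 0.319) for the other.

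Ttr (chr18:20664209-20674326 in GRCm38.p6) was the gene that stood highest in Stk40 KO livers relative to the other members. Its brightest probe set (1454608_x_at) had 8656 and 9021 in Stk40 KO livers, against 7319 and 8575 in WT livers. Probe set 1455913_x_at had 7218 and 7528 in Stk40 KO livers, against 5389 and 6748 in WT livers. Both values of Stk40 KO lay above both of WT in each of these probe sets, and WT replicate 1 was the low array. The remaining probe sets of Ttr had the same order of genotypes. Probe set 1459737_s_at had 7412 and 7446 in Stk40 KO livers, against 6104 and 6958 in WT livers. Probe set 1451580_a_at had 6107 and 5707 in Stk40 KO livers, against 4743 and 5342 in WT livers. The means of Stk40 KO were thus 11.2% to 21.5% above those of WT as deposited, with the widest difference in 1455913_x_at (log2 fold change 0.29, 95% confidence interval -0.054 to 0.63, limma adjusted p = 0.548). At equal 75th percentiles the log2 fold changes of the 4 were -0.076, 0.056, -0.044 and -0.0033 in the order given here, with adjusted p-values of 0.575, 0.693, 0.759 and 0.986 by limma. The mean of the 4 probe sets gave a log2 fold change of 0.22 (95% confidence interval -0.13 to 0.56) as deposited and of -0.017 (-0.15 to 0.12) at equal 75th percentiles. The scaling thus removed nearly the whole difference in Ttr, and the sign of 3 of the 4 probe sets turned with it.

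Apoa1, like Alb, overlapped between genotypes as deposited and was lower in Stk40 KO without overlap after scaling. Probe set 1455201_x_at had 6337 and 6625 in Stk40 KO livers, against 5877 and 6620.4 in WT livers. Probe set 1438840_x_at had 6389 and 6625 in Stk40 KO livers, against 5620.3 and 6656 in WT livers. Probe set 1419233_x_at had 6163 and 6159.6 in Stk40 KO livers, against 5811 and 6249 in WT livers. As deposited, the means differed by 2.18% to 6.01% of the WT mean, with Stk40 KO higher, less than the gap between the WT arrays in each probe set. At equal 75th percentiles all 3 were lower in Stk40 KO without overlap, by log2 fold changes of -0.18, -0.14 and -0.20 in the same order, and none passed the test (limma adjusted p = 0.202, 0.257 and 0.186). The mean of the 3 gave -0.17 (95% confidence interval -0.32 to -0.031). Several probe sets of Afp, Ttr and Apoa1 carry the suffix _x_at, by which the maker marks probes that can also bind other transcripts.

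None of the 10 probe sets passed the test on either scale. As deposited, 0 of 10 passed at an adjusted p of 0.05 and 0 of 10 at an unadjusted p of 0.05, where limma called 2.34% of all tested probe sets (295 of 12600; 2.25% higher and 0.0873% lower in Stk40 KO) and 11.3% had an unadjusted p under 0.05. After scaling, 0 of 10 passed and 4 of 10 (Alb and the 3 of Apoa1) had an unadjusted p under 0.05, where 1.88% of all tested probe sets (232 of 12319; 1.21% higher and 0.674% lower) were called and 17.8% had such a p. The 2-fold rule of the study's methods took 5.37% of 32833 probe sets and none of the 10. All 10 fold changes were positive as deposited, with a median log2 value of 0.11, and 9 of 10 were negative at equal 75th percentiles, with a median of -0.12. The confidence intervals of all 10 together spanned 0.795-fold to 1.55-fold as deposited and 0.769-fold to 1.15-fold at equal 75th percentiles. A 2-fold change in either direction lay outside each of them. The brightest value of each array, however, was only 9384 to 11492 as deposited. Whether a 2-fold rise of probe sets this bright could be read was not tested. In RNA of whole livers, a different share of hepatocytes and a different level of these transcripts per hepatocyte cannot be told apart, in either direction.

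**Figure D2:**
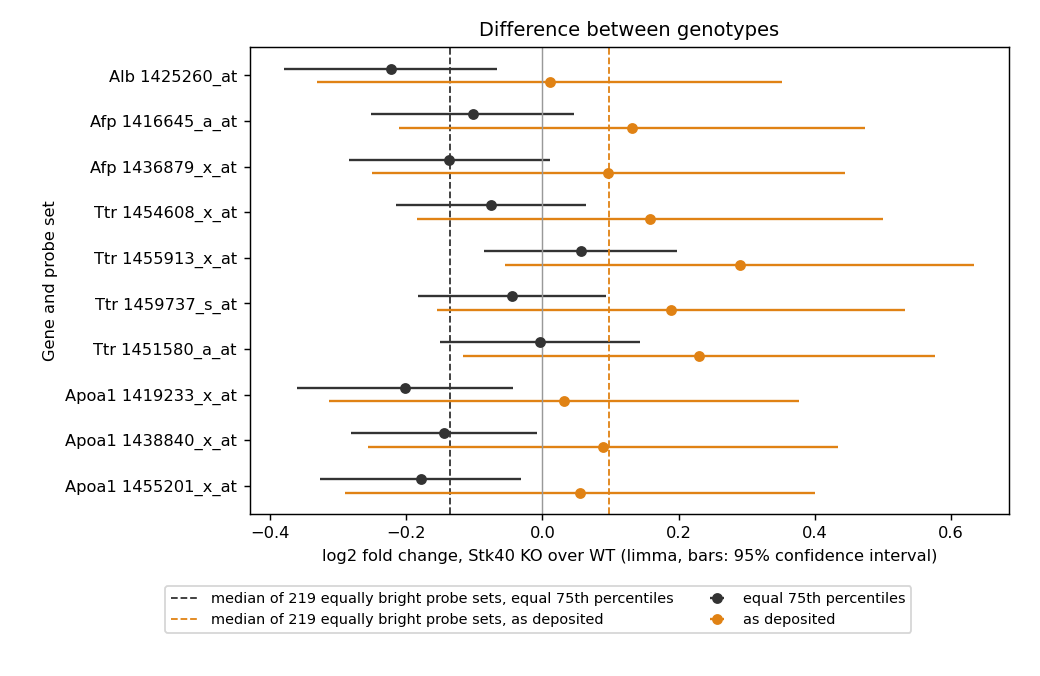
Log2 fold change, Stk40 KO over WT (horizontal axis), of the 10 probe sets (vertical axis) as points with 95% confidence intervals from limma, at equal 75th percentiles (black) and as deposited (orange). Dashed lines give the median of the 219 other probe sets at least as bright as the dimmest of the 10, at -0.14 and 0.10, and the intervals of Alb and of the 3 Apoa1 probe sets at equal 75th percentiles are the ones that leave out 0.

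Overlap between the genotypes followed the scaling. As deposited, the 4 Ttr probe sets were higher in Stk40 KO without overlap and the other 6 overlapped, where 45.5% of all tested probe sets were higher in Stk40 KO without overlap and 1.3% lower. Among the 219 other probe sets at least as bright as the dimmest of the 10, 21.5% were higher without overlap. After scaling, 7 of 10 were lower in Stk40 KO without overlap (Alb, the 2 of Afp, the 3 of Apoa1 and Ttr 1454608_x_at), against 32.4% of all tested probe sets, and none of the 10 was higher without overlap, against 16%. As deposited, the gap between the WT arrays exceeded the difference between the genotype means in 8 of 10 probe sets, and that between the Stk40 KO arrays did so in 3 of 10. After scaling these counts were 3 of 10 for the WT arrays and 4 of 10 for the Stk40 KO arrays. Replicate 2 read 0.934 to 1.08 times replicate 1 in Stk40 KO, against 1.08 to 1.25 times in WT. With scaling the ranges were 0.947 to 1.09 in Stk40 KO and 0.895 to 1.04 in WT, and WT replicate 1, the lowest array for every probe set before, was the highest for 8 of the 10.

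Fold changes declined with brightness, and the members sat at the bright end. As deposited, the median log2 fold change was 0.20 for the 7249 probe sets with a mean intensity under 500, 0.17 between 1000 and 2000, and 0.11 for the 336 at 4000 and over, against 0.19 for all 12263 tested on both scales. At equal 75th percentiles the same classes had -0.0088, -0.066 and -0.12, against -0.036 over all. Among the 219 other probe sets at least as bright as the dimmest member, the median was 0.098 as deposited (interquartile range 0.065 to 0.14) and -0.14 at equal 75th percentiles (-0.17 to -0.094), 0% were called on either scale, 42.5% had an unadjusted p under 0.05 at equal 75th percentiles and 85.8% were lower in Stk40 KO without overlap there. The 10 members, with medians of 0.11 and -0.12, 40% with such a p and 70% without overlap in that direction, had a median like that of other bright probe sets but a wider spread around it. Since the 10 are repeated readings of 4 genes, this spread describes differences between those genes and not 10 separate members. The 4 Ttr probe sets lay above the interquartile range of those 219, Alb and 2 of the 3 of Apoa1 lay below it, and the 2 of Afp and Apoa1 1438840_x_at lay within it. The scaling shifts the log2 fold changes of all these bright probe sets by the same amount. Their positions are therefore the same on both scales by construction. Whether the bright end of the scale responds less than the rest was not tested.

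**Figure D3:**
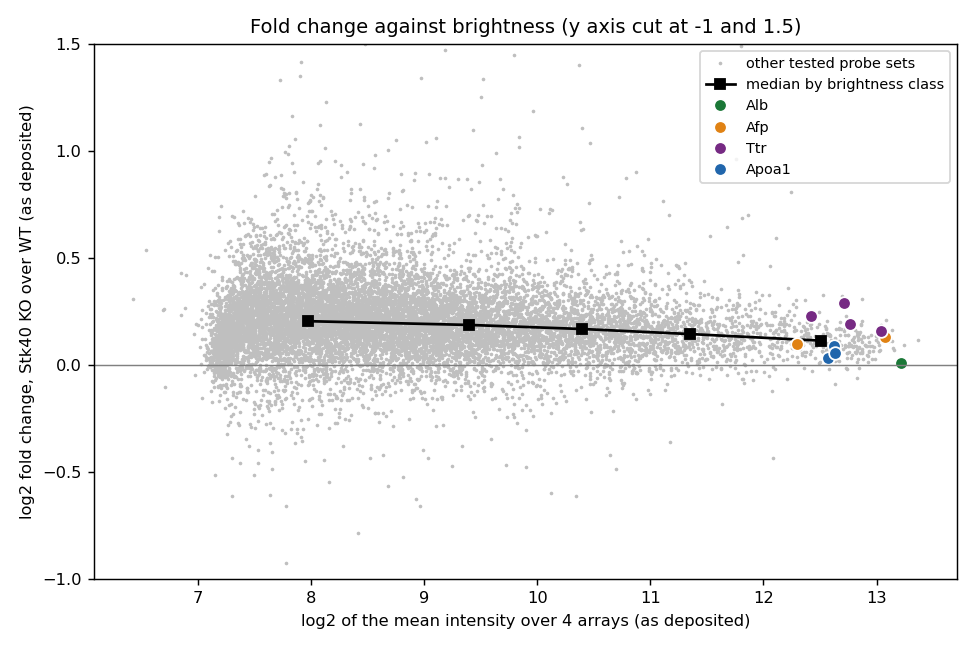
Log2 fold change, Stk40 KO over WT, as deposited (vertical axis) against log2 of the mean intensity over the 4 arrays (horizontal axis) for all tested probe sets (grey), with the median of each brightness class (black squares) and the members in colour. The class medians decline between 0.20 in the dimmest and 0.11 in the brightest class, and the members sit at the bright end, Ttr above and Alb and Apoa1 below the last median.

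Ratios within an array do not depend on the scaling between arrays. The difference of a ratio between genotypes is the log2 fold change of the member minus that of the denominator. Ttr was therefore the highest member here by construction, as in the fold changes, and this is no further support. Relative to Alb, the log2 value of Ttr 1455913_x_at was -0.37 and -0.37 in Stk40 KO livers, against -0.75 and -0.55 in WT livers. Ttr 1454608_x_at had -0.11 and -0.11 in Stk40 KO livers, against -0.30 and -0.21 in WT livers. All 4 Ttr probe sets were higher relative to Alb in Stk40 KO without overlap, by 0.15 to 0.28. The mean of the 4 was -0.36 and -0.41 in Stk40 KO livers, against -0.64 and -0.54 in WT livers, a difference of 0.21. With Alb set equal on all arrays, the median log2 fold change of all tested probe sets was 0.18. A higher value relative to Alb was thus common and not particular to Ttr, but most tested probe sets are dimmer than the members. Among the 219 others at least as bright as the dimmest member, the median as deposited was 0.098, against 0.011 for Alb. The 4 Ttr probe sets lay above the interquartile range of those 219. Relative to the mean of Apoa1 the 4 Ttr probe sets were again higher without overlap, by 0.099 to 0.23. Relative to the mean of Afp they were higher by 0.044 to 0.18, with overlap in 2 of the 4. The smallest p that an exact permutation test of 2 arrays against 2 can give is 0.333 (two-sided), which each ratio without overlap reached, so none of these differences could pass the threshold.

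**Figure D4:**
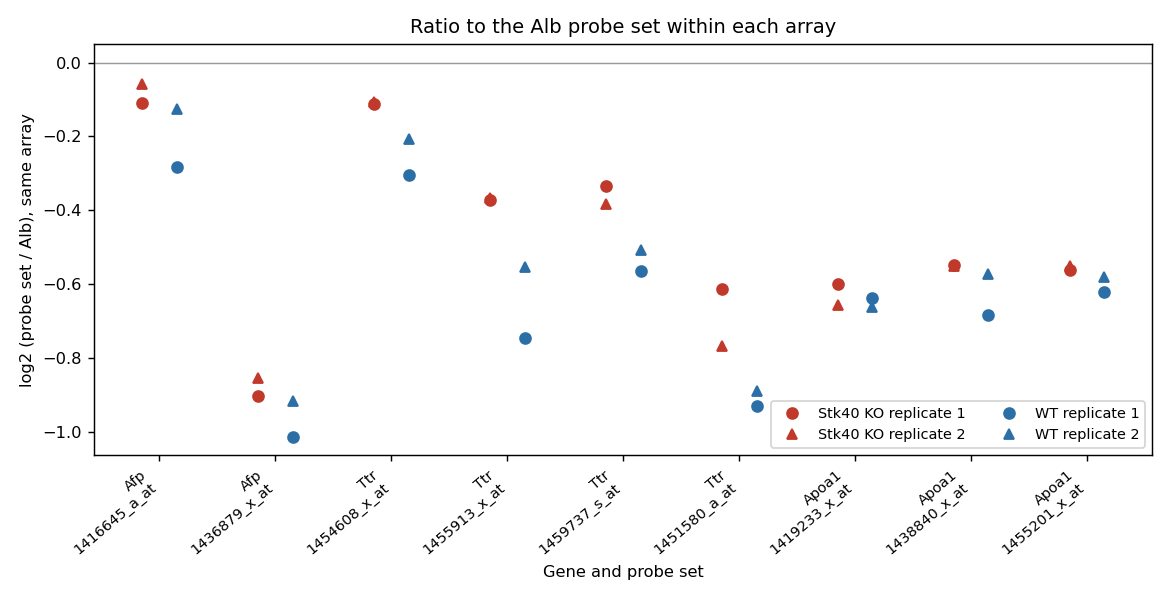
Log2 ratio of each Afp, Ttr and Apoa1 probe set to the Alb probe set of the same array (vertical axis) by probe set (horizontal axis), for the 2 Stk40 KO arrays (red) and the 2 WT arrays (blue). Stk40 KO lies above WT without overlap in all 4 Ttr probe sets, by 0.15 to 0.28, and the genotypes of the Apoa1 probe sets lie 0.021 to 0.078 apart. With Alb set equal on all arrays, all tested probe sets, most of them dimmer than the members, had a median log2 fold change of 0.18.

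Afp lay between Ttr and Apoa1 in these ratios. Its probe sets were higher relative to Alb in Stk40 KO by 0.12 and 0.086 without overlap, but overlapped relative to Apoa1. The mean of Apoa1 relative to Alb was -0.57 and -0.59 in Stk40 KO livers, against -0.65 and -0.61 in WT livers, a difference of 0.048. Over the 4 arrays, Alb and Apoa1 were the closest pair of member genes, and Afp and Ttr the next, with Euclidean distances between centred log2 values of their brightest probe sets of 0.053 and 0.060. The other pairs were 0.11 to 0.17 apart. By this distance, with 1 probe set per gene, Afp was no nearer than Ttr to Alb (0.167 and 0.162) or to Apoa1 (0.116 and 0.110).

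Other hepatocyte genes moved much further than the members, among those that carry a name. Names of other probe sets come from the authors' table of 2-fold changes, so a gene is named because it changed, and the counts below describe that table and not the pathway. Of the 76 other genes on 4 lists of secreted liver proteins (apolipoproteins, plasma transport proteins, coagulation, serpins and complement), 9 were named. Of these, 3 could be tested, and all 3 were called higher in Stk40 KO at equal 75th percentiles, as were 1.21% of all tested probe sets. Haptoglobin (Hp), which binds free haemoglobin, had 594 and 879 in Stk40 KO livers, against 208 and 279.8 in WT livers. Ceruloplasmin (Cp), a copper-carrying ferroxidase, had 1154 and 1425 in Stk40 KO livers, against 293 and 298 in WT livers. Igfbp1, which binds insulin-like growth factors in plasma, had 4364 and 6211 in Stk40 KO livers, against 1801 and 1910.3 in WT livers. The log2 fold changes at equal 75th percentiles were 1.35 for Hp, 1.88 for Cp and 1.26 for Igfbp1. Of the other 6, Apoc3, Fetub, Orm1, C4b and Masp1 had a higher mean in Stk40 KO and Mbl2 a lower one, all under the noise level on every array.

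Relative to Alb, 3 other hepatocyte genes differed far more than the members did. Igfbp1 relative to Alb was -1.10 and -0.64 on the log2 scale in Stk40 KO livers, against -2.33 and -2.37 in WT livers, a difference of 1.48. Bhmt, which transfers a methyl group of betaine to homocysteine, was -4.75 and -5.07 in Stk40 KO livers, against -2.75 and -2.67 in WT livers, a difference of -2.20. Cps1, the first enzyme of the urea cycle, was -2.95 and -2.56 in Stk40 KO livers, against -5.99 and -6.12 in WT livers, where it lay under the noise level and was set to it, so that the difference of 3.30 is a lower bound. These 3 genes were chosen for their known change in these data, and their differences are a description. Of 29 genes of late hepatocyte enzymes 10 were named and 7 could be tested, of which 4 were called higher and 1 (Bhmt) lower at equal 75th percentiles, and 6 higher and 1 lower as deposited, where 1.21% and 0.674% of all tested probe sets at equal 75th percentiles, and 2.25% and 0.0873% as deposited, were called. As deposited, Cps1, Mat1a, Uox, Fbp1 and Cyp3a16 exceeded the noise level on the Stk40 KO arrays only. With their WT values raised to that level, a call for them could only be higher, so these counts give no support to a direction. None of 17 genes of hepatoblast growth was named.

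No gene with a name had a pattern over the arrays close to that of the members. Among 31 named probe sets above noise on all 4 arrays, the nearest to each of the 4 genes was Ptgfrn, a membrane protein of the immunoglobulin superfamily, at a distance of 0.88 from Ttr, 0.907 from Afp, 0.985 from Apoa1 and 1.03 from Alb. Next was Scd1, a fatty acid desaturase, at 0.882 to 1.03, and then Scd2, a related desaturase, for Afp and Ttr and Col1a1, of collagen, for Alb and Apoa1. All had changed by 2-fold, so these distances reflect which genes are named.

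Markers of other liver cells could be read in part, since their names also come from the table of 2-fold changes. A count or sum over them follows largely from how they were named. Of 15 neutrophil markers 5 were named (Ngp, Camp, Ltf, Lcn2 and Mmp8). Of these, 4 were tested and all 4 were called higher on both scales. Over all tested probe sets, 1.21% at equal 75th percentiles and 2.25% as deposited were called higher. The summed intensity of the 5 was 4219.9 and 5932 in Stk40 KO livers, against 1747 and 1806 in WT livers. Of 14 stellate and mesenchymal markers 4 were named, and 3 of them (Des, Acta2 and Hgf) lay under the noise level on every array. The fourth, Col1a1, a collagen chain, had 517 and 644 in Stk40 KO livers, against 267 and 291 in WT livers, and was called higher. None of 20 erythroid markers had a name, so the level of erythroid RNA, the main other RNA of this organ, was not analysed here. The part of these cells in the values of the 4 genes was not tested.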

How the data were processed

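Total RNA of E14.5 fetal livers was hybridized to 4 arrays. The authors deposited linear intensities, unscaled. MAS5 stands in the submitters' processing notes, and its version was not stated there. Of the values, 99.9% were multiples of 1/11 within 0.001 and 21.0% to 23.2% on each array were negative, as plain mean differences over probe pairs give but a MAS5 signal does not, so the algorithm that made them is not known. The authors also deposited a table of 2-fold changes with intensities, genotype means, folds and gene symbols, from which the 1418 probe sets with 1 symbol (of 1467) were named and the folds were not used. Members were assigned to genes by the given selection, and gene positions and promoters are from RefSeq. Members and gene lists were chosen with earlier results of these data known.

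Each array was scaled to the same 75th percentile of positive values, values under the noise level (143) were raised to it, and probe sets that exceeded it on 2 or more arrays were tested with limma 3.58.1 (lmFit, eBayes with trend, R 4.3.3) with Benjamini-Hochberg adjustment over all of them. The study's methods name a fold threshold and no test for the arrays. On intensities as deposited the prior degrees of freedom were infinite (6.31 after scaling), so that a probe set's own spread did not enter its p-value. Named genes were the 10 members, Stk40, up to 4 tested genes of a list, the 3 nearest named genes per member and Cps1, Bhmt and Igfbp1; genes named beyond this rule were chosen after their values were seen. The code was tested on simulated data. Only 2 arrays per genotype limit the precision. Alternatives covered the scaling, floor, filter, prior variance, replicate number and each array left out.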

Additional observations from a re-analysis of the deposited data

How the results depend on the processing

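The members were called on neither scale, and 0 of 10 passed under each alternative that kept all 4 arrays but 1. With Alb set equal on all arrays, Ttr 1455913_x_at passed (log2 fold change 0.28, limma adjusted p = 0.00899). In that setting 1283 of all tested probe sets were called higher and 41 lower, far more than on either scale. Without WT replicate 2, which leaves 1 WT array, the log2 fold change of Alb was -0.29. With each array left out in turn, the log2 fold changes of the members ranged over -0.29 to 0.097.

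The sign followed the scaling. As deposited the log2 fold change was 0.011 for Alb, 0.13 and 0.097 for Afp, 0.16, 0.19 and 0.23 for Ttr 1454608_x_at, 1459737_s_at and 1451580_a_at, and 0.032, 0.089 and 0.055 for Apoa1 1419233_x_at, 1438840_x_at and 1455201_x_at. Quantile normalization gave 0.054, 0.092 and 0.10 for those 3 Ttr probe sets. It gave 0.19 for Ttr 1455913_x_at, against 0.056 at equal 75th percentiles. Alb, Afp and Apoa1 were then closer to 0 than at equal 75th percentiles: -0.040 for Alb, -0.0039 and -0.035 for Afp, and -0.071, -0.0061 and -0.046 for Apoa1. With spiked controls set equal, 9 of 10 were negative, with a median of -0.16. Cyclic loess, chosen after seeing the data, gave 0.048, 0.072 and 0.10 for the 3 Ttr probe sets and 0.022 for Afp 1416645_a_at. It gave -0.094 for Alb and -0.090, -0.031 and -0.065 for Apoa1. Alb set equal, also chosen later, gave 0.12 and 0.086 for Afp, 0.15, 0.18 and 0.22 for the 3 Ttr probe sets and 0.021, 0.078 and 0.044 for Apoa1. With single arrays left out, Ttr 1451580_a_at ranged over -0.050 (without WT replicate 2) to 0.043 (without WT replicate 1) and was 0.036 without Stk40 KO replicate 2. In all, 134 of 162 alternative values of members kept direction and side of the threshold, 26 turned sign and 2 passed. The median of all tested probe sets was -0.036 at equal 75th percentiles, 0.18 as deposited and 0.18 with Alb set equal. The causes were not tested.

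The probe sets called higher and lower in Stk40 KO numbered 149 and 83 at equal 75th percentiles, 284 and 11 as deposited, 66 and 17 with spiked controls set equal, 181 and 58 after quantile normalization, 259 and 103 with cyclic loess, and 1283 and 41 with Alb set equal. They were 238 and 160 with a floor at the median size of negative values, 239 and 162 with an offset, 215 and 201 above noise on all 4 arrays, 22 and 10 with no filter (above noise on at least 1 array), 105 and 55 without a trend, and 204 and 137 with robust eBayes. Leaving out each array in turn gave 98 to 438 higher and 115 to 293 lower, the highest of each without WT replicate 2 and the lowest without Stk40 KO replicate 2 and WT replicate 1. With the replicate number as a block the counts were 778 and 1140, with 0 of 10 members called. The correlation of deviations between same-numbered arrays was 0.24, and the samples share only a number.

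The difference of the Ttr mean over Alb, 0.21, was 0.088 over the mean of the 10 members and 0.10 over Afp, and 0.16 to 0.25 with each array left out. That of Afp was -0.014 over the mean of the 10, and that of Apoa1 was -0.069 over it and -0.055 over Afp. Alternatives of the gene lists were not run, since only genes with a 2-fold change carry names.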
